A study of Mus musculus with 6 samples.

Results

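The neurotrophic genes described here are 8 named genes, Bdnf, Ntf3, Ngfr, Ntrk2, Ntrk3, Gdnf, Gfra1 and Ret, taken from the count table by exact gene name out of 54532 genes. They were read in 6 Smart-seq2 libraries (full-length cDNA sequencing from few cells) of dissociated epidermis from C57BL/6 mice of both sexes, 4 weeks old, with no treatment and no genetic change. There were 3 NCAM-enriched libraries, in which Merkel cells were pulled out with beads against polysialylated NCAM, a cell surface adhesion molecule, and then sorted as NCAM-positive and DAPI-negative, and 3 bulk skin libraries of DAPI-negative epidermal cells with no such selection. Each library came from 500 sorted events, DAPI being a dye that enters dead cells. The question for these genes was in which libraries each was detected and whether its level differed between NCAM-enriched cells and the bulk of the epidermis. None of the labels says that the replicates came from separate animals, so the p-values measure only the spread between these libraries.

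Neurotrophins are small secreted proteins that keep sensory neurons alive and guide their endings. Each binds a Trk receptor tyrosine kinase, and all of them, as well as their precursors, bind the shared receptor encoded by Ngfr. The GDNF family uses another receptor pair, in which a GFR alpha protein anchored in the membrane holds the ligand and the kinase Ret carries the signal into the cell. In skin, Merkel cells are the epidermal partners of touch-sensitive nerve endings, and keratinocytes are a known source of neurotrophins for those nerves.

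The labelled cell type was checked against marker lists, each given as its summed level in normalised CPM (counts scaled to the adjusted size of the library). The Merkel cell list reached 517 to 1856 CPM in the NCAM-enriched libraries and 154 to 202 CPM in bulk skin, with 5 of 12 tested markers called higher and Vip at 0 in all 6 libraries. Other marker lists differed between the groups as well. Suprabasal keratinocyte markers summed to 14503 to 38640 CPM against 1605 to 1821 CPM, with 8 of 11 called higher, and hair follicle markers to 6415 to 29077 CPM against 2162 to 2958 CPM, with 1 of 10 called higher and 1 lower and Krt75, Tbx1 and Krt25 at 0 after enrichment. Most of the hair follicle sum was Krt17 (6880, 4910 and 17800 CPM in NCAM-enriched libraries 1, 2 and 3, against 980 to 1230 CPM) and Krt79 (4950, 961 and 10300 CPM, against 488 to 690 CPM). Lgr6 (23.4, 40.9 and 37.5 CPM, against 166 to 248 CPM) and Tbx1 (0 against 9.31 to 23.3 CPM) went the other way. For the rest of that list the groups overlapped, so its sum does not speak for all its markers. In bulk skin Flg and Krt25 were at 0. T and NK cell markers summed to 42.0 to 239 CPM against 4433 to 4724 CPM, with 8 of 10 called lower and Cd3d, Cd2 and Gzmb at 0 after enrichment, and Langerhans and myeloid markers to 191 to 796 CPM against 12562 to 20760 CPM, with 7 of 11 called lower. The part of these cells in the levels of the neurotrophic genes was not tested.

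The NCAM-enriched libraries also differed among themselves. Across genes, log2 CPM correlated at 0.596 to 0.719 within this group and at 0.855 to 0.882 within bulk skin. NCAM-enriched library 3 had the lowest Merkel cell sum of its group (517 CPM) and the highest basal keratinocyte sum of any library (31599 CPM, against 7706 and 10013 CPM in the other NCAM-enriched libraries and 12593 to 16779 CPM in bulk skin, with 0 of 9 called). NCAM-enriched library 2 had the highest fibroblast sum (34468 CPM, against 1641 and 74.1 CPM in libraries 1 and 3 and 11508 to 19410 CPM in bulk skin, with 0 of 9 called and Corin at 0 after enrichment). Most of the library 2 sum was Col1a1 and Col1a2. These were at 11900 and 15400 CPM, against 2600 to 5910 and 2380 to 4960 CPM in bulk skin. Pdgfra (71.1 CPM, against 30.7 to 41.0 CPM) and Pdgfrb (31.7 CPM, against 4.97 to 13.6 CPM) were also above bulk skin. Dcn (774 CPM, against 1920 to 2110 CPM), Lum (44.8 CPM, against 240 to 344 CPM) and Corin were below it. The sum thus does not speak for all its markers. Totals ran from 1343190 to 4481830 counts, so that 1 count was worth 0.216 to 0.773 CPM.

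**Figure D1:**
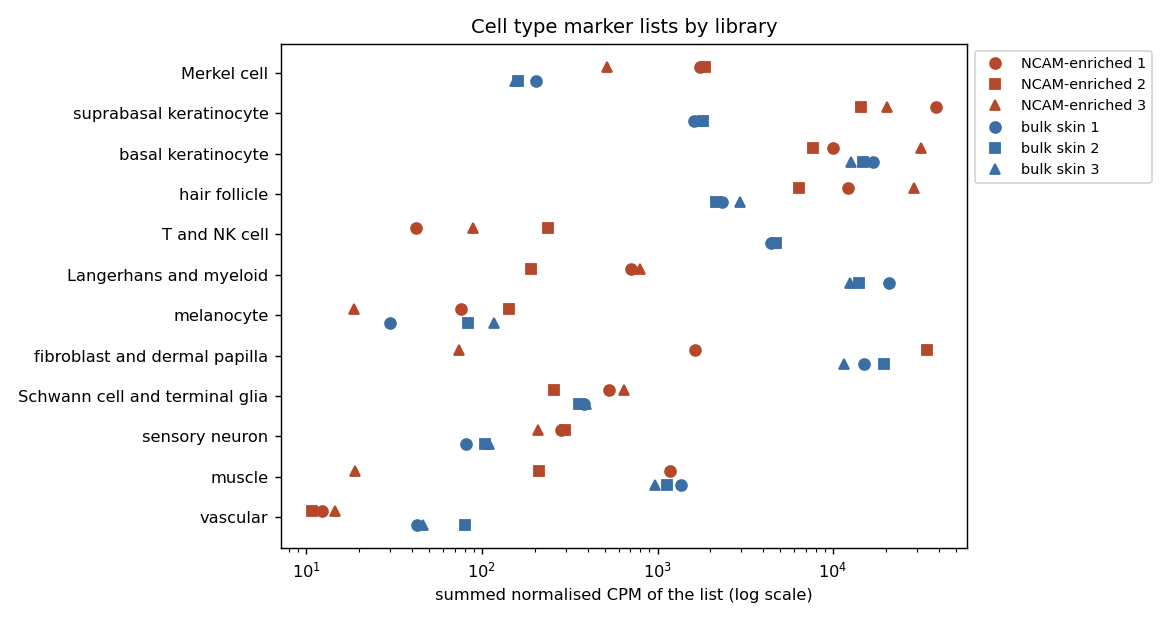
Summed normalised CPM of each cell type marker list on a log axis, with 1 point per library (NCAM-enriched in red, bulk skin in blue, the shape giving the library number). The Merkel cell sums of the NCAM-enriched libraries, from 517 to 1856 CPM, sit above the bulk skin sums of 154 to 202 CPM, while T and NK cell sums lie at 42.0 to 239 CPM against at least 4433 CPM in bulk skin.

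Detection of the neurotrophic genes was patchy after NCAM enrichment and close to complete in bulk skin. With at least 1 count taken as detection, 5, 4 and 6 of the 8 genes were detected in NCAM-enriched libraries 1, 2 and 3, and 7, 8 and 8 in bulk skin libraries 1, 2 and 3. With at least 5 counts, 4, 3 and 6 genes remained in the NCAM-enriched libraries and 7, 8 and 8 in bulk skin. Bdnf, Ntf3 and Ntrk2 had counts in every library of both groups, whereas Ret had none in any NCAM-enriched library. When every library was thinned at random to 1343190 counts, the total of the smallest one, the mean number of genes detected over 1000 draws was 4.9, 4.0 and 5.92 after enrichment and 7.0, 7.99 and 7.99 in bulk skin. The groups therefore did not overlap in the number of these 8 genes detected, with or without equal depth. Over all genes, with at least 1 count, NCAM-enriched libraries 1, 2 and 3 had 18245, 15480 and 17062 genes detected. Bulk skin libraries 1, 2 and 3 had 17472, 19116 and 18855, so the groups overlapped over all genes. Detection over all genes was not taken at equal depth. An absent count still allows a low level, since 3 counts correspond to 1.59, 2.32 and 0.851 CPM in NCAM-enriched libraries 1, 2 and 3, a limit that covers counting error only because reads are PCR copies without molecular tags. Fewer cells of a type and less RNA per cell cannot be told apart in pooled samples of this kind.

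**Figure D2:**
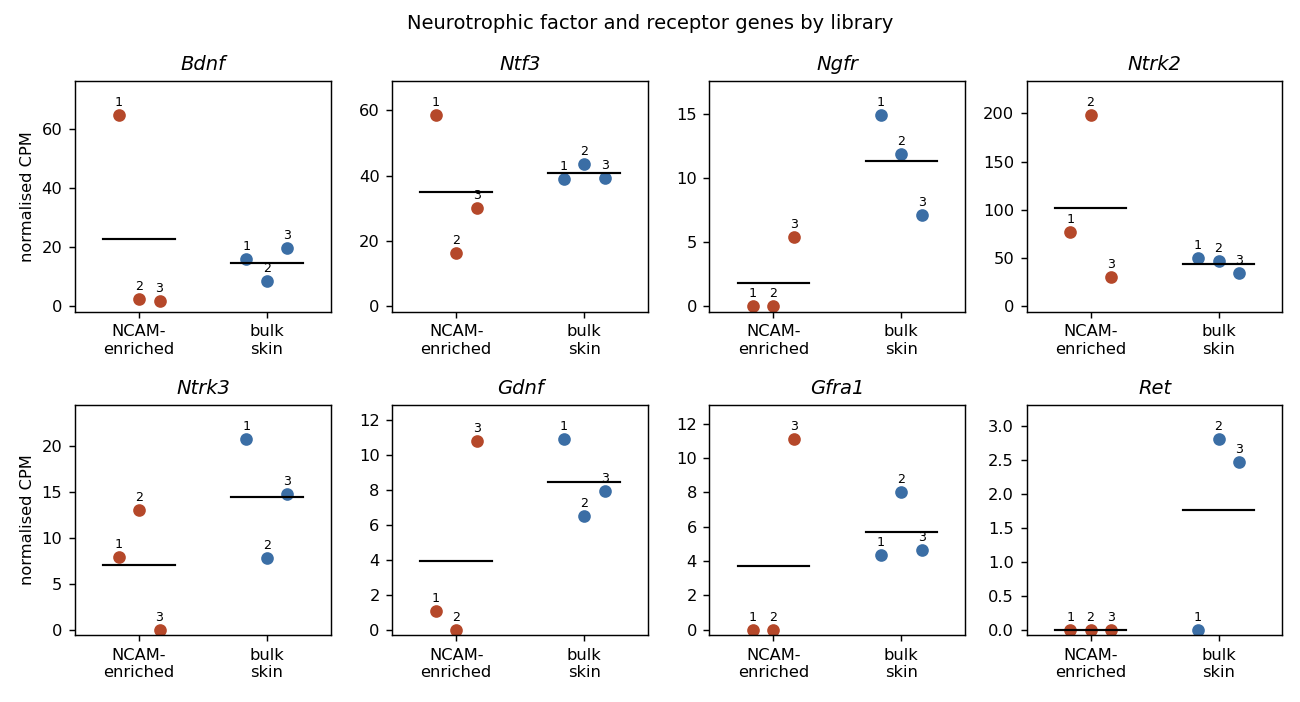
Normalised CPM of each of the 8 genes, with 1 point per library labelled by its number and a bar at the group mean. NCAM-enriched library 1 stands alone for Bdnf at 64.8 CPM, library 2 for Ntrk2 at 198 CPM and library 3 for Ngfr, Gdnf and Gfra1. The bulk skin libraries lie between 39.1 and 43.7 CPM for Ntf3 and between 7.78 and 20.8 CPM for Ntrk3.

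No neurotrophic gene was called between the groups. Differences were tested with edgeR's quasi-likelihood test on all genes, and a call needed an adjusted p no higher than 0.05. Of the 8 genes 7 had enough counts to be tested, of which 0 were called higher and 0 lower, and 0 had an unadjusted p under 0.05. Over all genes 341 of 13157 were called, or 2.59%. DESeq2 also called 0 of the 7, with 0 at an unadjusted p under 0.05, where it called 12.2% of all genes, and limma-voom called 0, with 1 at an unadjusted p under 0.05, where it called 9.12% of all genes. The median log2 fold change, NCAM-enriched over bulk skin, was -0.55 over the 7 genes and -0.07 over all genes tested. Standard errors ran from 0.62 to 1.64 log2 units, and the 95% interval of every one of the 7 genes included 0.

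Among the ligands, Ntf3 encodes neurotrophin-3, the main ligand of TrkC and a survival factor for touch and muscle-sense neurons. Ntf3 had 110, 21 and 106 counts in NCAM-enriched libraries 1, 2 and 3, or 58.5, 16.2 and 30.1 CPM, and 126, 202 and 143 counts in bulk skin, or 39.1, 43.7 and 39.2 CPM. Bulk skin was even from library to library, and the NCAM-enriched libraries lay on both sides of it. The mean level was 34.9 ± 21.5 CPM (SD, n = 3) after enrichment and 40.7 ± 2.6 CPM in bulk skin. The log2 fold change of Ntf3 was -0.22 (SE 0.62, 95% interval -1.62 to 1.19, edgeR adjusted p = 0.898, range over the alternatives 0.524 to 0.956). Ntf3 lies on GRCm38 chromosome 6 from 126101412 to 126166910 on the minus strand.

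Bdnf encodes brain-derived neurotrophic factor, the ligand of TrkB. Bdnf had 122, 3 and 6 counts in NCAM-enriched libraries 1, 2 and 3, or 64.8, 2.32 and 1.7 CPM, and 52, 39 and 72 counts in bulk skin, or 16.1, 8.43 and 19.7 CPM. NCAM-enriched library 1 was thus above every bulk skin library and the other two were below every one of them. The mean of 22.9 ± 36.3 CPM (SD, n = 3) after enrichment, against 14.8 ± 5.78 CPM, describes none of the enriched libraries. The log2 fold change of Bdnf was 0.63 (SE 1.32, 95% interval -2.37 to 3.64, edgeR adjusted p = 0.856, range over the alternatives 0.219 to 0.972). Library 1 set the sign of this value, which was -2.88 without it (edgeR adjusted p = 0.219) and 1.15 without library 3. Bdnf spans positions 109674700 to 109727007 of chromosome 2 on the plus strand, and 14.41% of its exonic bases overlap Gm45346 on the minus strand, which had 0 counts in every library.

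The receptors of these ligands are a shared one and the Trk kinases. Ngfr encodes the shared, low-affinity receptor, which binds every neurotrophin and also marks Schwann cells and subsets of hair follicle cells. Ngfr had 0, 0 and 19 counts in NCAM-enriched libraries 1, 2 and 3, or 0, 0 and 5.39 CPM, and 48, 55 and 26 counts in bulk skin, or 14.9, 11.9 and 7.13 CPM. It was the only tested gene of the 7 whose groups did not overlap, every NCAM-enriched library being below every bulk skin library, and 19.3% of all tested genes were separated in that direction and 30.4% in either. The mean level was 1.8 ± 3.11 CPM (SD, n = 3) after enrichment and 11.3 ± 3.92 CPM in bulk skin. The log2 fold change of Ngfr was -2.51 (SE 1.57, 95% interval -6.08 to 1.06, edgeR adjusted p = 0.446, range over the alternatives 0.0452 to 0.734), and limma-voom gave -3.7 with an adjusted p of 0.0962.

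All the Ngfr counts of the enriched group came from library 3. Without that library Ngfr was called lower (edgeR adjusted p = 0.0452), as the only call among the 7 genes where 12.2% of all genes were called. The remaining enriched libraries then had no count, so this call rests on removing the library that held them all, and no fold is given. The Schwann cell and terminal glia list, of which Ngfr is not a member, summed to 528, 257 and 645 CPM in NCAM-enriched libraries 1, 2 and 3 and to 357 to 390 CPM in bulk skin, with 0 of 10 tested markers called, S100b and Foxd3 at 0 in the enriched group and Foxd3 and Gfap at 0 in bulk skin. The part of these cells in the Ngfr counts was not tested. Ngfr is on chromosome 11, positions 95568818 to 95587735, minus strand.

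Ntrk2 encodes TrkB, the receptor of Bdnf and of neurotrophin-4, and is also transcribed in a truncated form without the kinase that gene counts do not separate. Ntrk2 had 144, 256 and 107 counts in NCAM-enriched libraries 1, 2 and 3, or 76.5, 198 and 30.4 CPM, and 161, 216 and 124 counts in bulk skin, or 50, 46.7 and 34.0 CPM. Libraries 1 and 2 of the enriched group were above all bulk skin libraries and library 3 was below them. The mean level was 102 ± 86.5 CPM (SD, n = 3) after enrichment and 43.6 ± 8.44 CPM in bulk skin. The log2 fold change of Ntrk2 was 1.21 (SE 0.65, 95% interval -0.27 to 2.70, edgeR adjusted p = 0.368, range over the alternatives 0.0849 to 0.806). It was 1.57 without library 3 and 0.27 without library 2. Library 2 had the highest fibroblast sum, mostly from Col1a1 and Col1a2, and the part of these cells in this value was not tested. Ntrk2 is on chromosome 13, positions 58806569 to 59133970, plus strand.

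Ntrk3 encodes TrkC, the receptor of neurotrophin-3. Ntrk3 had 15, 17 and 0 counts in NCAM-enriched libraries 1, 2 and 3, or 7.97, 13.1 and 0 CPM, and 67, 36 and 54 counts in bulk skin, or 20.8, 7.78 and 14.8 CPM. The groups overlapped, with bulk skin library 2 below both enriched libraries that had counts, and the mean level was 7.04 ± 6.62 CPM (SD, n = 3) against 14.5 ± 6.52 CPM. The log2 fold change of Ntrk3 was -1.06 (SE 1.44, 95% interval -4.34 to 2.21, edgeR adjusted p = 0.761, range over the alternatives 0.311 to 0.937). Within the NCAM-enriched group Ntrk3 was the reverse of Ngfr in detection, being absent only from library 3, the library that alone of its group held Ngfr and Gfra1. Both Ntrk3 and Ngfr had counts in every bulk skin library, and the share of all genes with either pattern was not counted. Ntrk3 is on chromosome 7, positions 78175959 to 78738012, minus strand.

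Gdnf encodes glial cell line-derived neurotrophic factor, the founding ligand of the GDNF family. Gdnf had 2, 0 and 38 counts in NCAM-enriched libraries 1, 2 and 3, or 1.06, 0 and 10.8 CPM, and 35, 30 and 29 counts in bulk skin, or 10.9, 6.49 and 7.95 CPM. Library 3 of the enriched group lay within the bulk skin range and the other two below it. The mean level was 3.95 ± 5.94 CPM (SD, n = 3) against 8.43 ± 2.23 CPM. The log2 fold change of Gdnf was -1.03 (SE 1.43, 95% interval -4.27 to 2.21, edgeR adjusted p = 0.766, range over the alternatives 0.128 to 0.93), and -3.81 without library 3 (edgeR adjusted p = 0.128). Gdnf is on chromosome 15, positions 7810846 to 7837575, plus strand.

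Gfra1 encodes the co-receptor that holds GDNF for Ret. Gfra1 had 0, 0 and 39 counts in NCAM-enriched libraries 1, 2 and 3, or 0, 0 and 11.1 CPM, and 14, 37 and 17 counts in bulk skin, or 4.35, 8.0 and 4.66 CPM. Its highest and its lowest values were both in the enriched group. The mean level was 3.69 ± 6.39 CPM (SD, n = 3) against 5.67 ± 2.02 CPM, and the log2 fold change of Gfra1 was -0.55 (SE 1.64, 95% interval -4.27 to 3.16, edgeR adjusted p = 0.903, range over the alternatives 0.0624 to 0.997). Library 3 held all the counts of the enriched group and was above every bulk skin library, and without it Gfra1 was not called either (edgeR adjusted p = 0.0624). Gfra1 is on chromosome 19, positions 58235604 to 58455909, minus strand, and 7.597% of its exonic bases overlap Gm16277 on the plus strand, which had 0 counts in every library.

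Ret encodes the kinase of the GDNF receptor. Ret had 0 counts in all 3 NCAM-enriched libraries and 0, 13 and 9 counts in bulk skin libraries 1, 2 and 3, or 0, 2.81 and 2.47 CPM. It was thus missing from 1 bulk skin library too, and its counts were too few for the test. Pooled over the libraries, 22 counts in bulk skin stood for 1.91 CPM, and a floor of 3 counts over the enriched group stood for 0.448 CPM. No fold is given, since that floor leaves out the counting error of the 22 bulk skin counts. When all genes with at least 1 count were fitted, the edgeR adjusted p of Ret was 0.366, and DESeq2 gave no adjusted p. Ret is on chromosome 6, positions 118151745 to 118197718, minus strand.

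**Figure D3:**
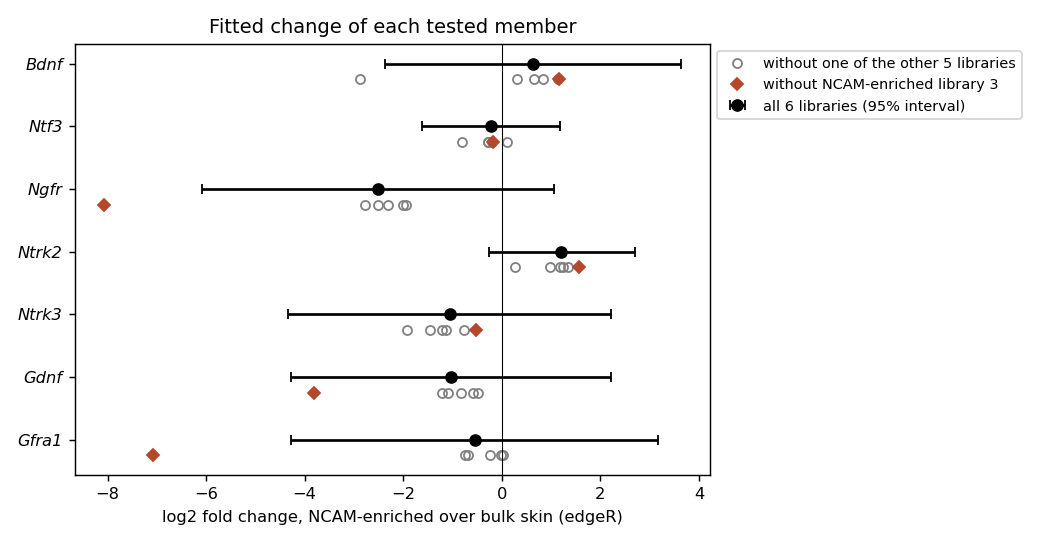
Log2 fold change of the 7 tested genes, NCAM-enriched over bulk skin, from edgeR. Black points and bars give the value and 95% interval with all 6 libraries, which include 0 for every gene, grey circles the values with 1 of the other 5 libraries left out, and red diamonds those without NCAM-enriched library 3, where the values of Ngfr and Gfra1 rest on libraries with no count and are not estimates of size.

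Ngfr and Gfra1 shared a pattern of detection, with no count in NCAM-enriched libraries 1 and 2 and a count in every other library. For this reason the 200 bases that end 50 bases before their RefSeq start sites (GRCm38.p6, minus strand of chr11:95587749-95587948 and of chr19:58455449-58455648) are printed 5′ to 3′, with capitals for the motifs found in them. The Gfra1 window lies inside the gene span given above, which reaches 58455909. The Ngfr window lies outside the span of its gene, which reaches 95587735. The motifs searched on both strands were the E-box CAGCTG, a palindrome bound by factors of the basic helix-loop-helix class, and the GC box GGGCGG of Sp factors, which do not overlap each other.
Ngfr: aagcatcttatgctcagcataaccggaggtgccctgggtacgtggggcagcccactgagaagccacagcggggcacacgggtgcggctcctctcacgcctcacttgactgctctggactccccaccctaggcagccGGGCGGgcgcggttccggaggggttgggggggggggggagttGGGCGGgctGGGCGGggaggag
Gfra1: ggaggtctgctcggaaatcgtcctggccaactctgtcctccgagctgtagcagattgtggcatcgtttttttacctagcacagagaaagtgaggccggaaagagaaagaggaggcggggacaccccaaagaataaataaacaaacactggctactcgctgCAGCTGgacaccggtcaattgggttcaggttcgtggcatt
The Ngfr window held 3 GC boxes and no E-box, and the Gfra1 window held 1 E-box and no GC box, so these letters were not common to both. Windows were at hand for 6 of the 8 genes, all but Ntrk3 and Ret, and Bdnf alone has 7 of the 14 start sites. The E-box was in 2 of these 14 windows, against 10.3% of 32851 windows of all genes, and the GC box was in 4 of 14, against 24.6%. A match describes the sequence and was not tied to binding by any measurement here. The share of all genes with the detection pattern of Ngfr and Gfra1 was not counted, and its link to these sequences was not tested.

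Levels were compared between genes as RPKM, which divides the CPM by the exonic length in kilobases, taken over all annotated exons of a gene. This length was 1714 bases for Ntf3, 19292 for Ntrk2 and 30170 for Ntrk3, and the order depends on it. In CPM the mean of Ntrk2 was above that of Ntf3, at 102 against 34.9 after enrichment and 43.6 against 40.7 in bulk skin. By mean RPKM Ntf3 was the leading gene in both groups, with 20.4 ± 12.6 RPKM (SD, n = 3) after enrichment and 23.7 ± 1.52 RPKM in bulk skin. In bulk skin it stood above all other genes in every library, followed by Ngfr (3.28 ± 1.14 RPKM), Bdnf (2.38 ± 0.929 RPKM), Gdnf (2.3 ± 0.607 RPKM) and Ntrk2 (2.26 ± 0.438 RPKM), which overlapped one another. Gfra1 (1.04 ± 0.37 RPKM) lay below Ntrk2 and above Ntrk3 (0.479 ± 0.216 RPKM) without overlap, and Ntrk3 overlapped Ret (0.26 ± 0.227 RPKM). After enrichment the order was Ntf3, Ntrk2 (5.26 ± 4.48 RPKM), Bdnf (3.69 ± 5.83 RPKM), Gdnf (1.07 ± 1.62 RPKM), Gfra1 (0.674 ± 1.17 RPKM), Ngfr (0.522 ± 0.903 RPKM), Ntrk3 (0.233 ± 0.219 RPKM) and Ret at 0, and the libraries of every pair of neighbours in it overlapped.

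Seen library by library, Ntf3 made up 62.1% to 69.6% of the summed RPKM of the 8 genes in bulk skin. It made up 69.5% and 67.7% in NCAM-enriched libraries 1 and 3. Library 2 was different, with 49.9% from Ntrk2 and 46.1% from Ntf3. Library 1 held 21.3% Bdnf, which was at most 9.41% elsewhere, and library 3 held 11.3% Gdnf and 7.8% Gfra1. The gene that ranked second was Bdnf in enriched library 1, Ntf3 in library 2 and Gdnf in library 3, and in bulk skin it was Ngfr in libraries 1 and 2 (11.8% and 9.43%) and Bdnf in library 3 (9.41%).

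The genes whose levels ran most like each member were found by Pearson correlation of log2(CPM + 1) over the 6 libraries, which share their groups and differ in depth, among the 10670 genes whose mean reached 10 CPM. They are a description. Bdnf was closest to Flcn (r = 0.996) and Rnf216 (0.994), Ntf3 to Cyp3a13 and Fastkd3 (0.993 each), Ntrk2 to Ccdc127 (0.998) and Ccdc43 (0.997), and Ntrk3 to Agpat2 (0.997) and Necap1 (0.992). Ngfr was closest to Ndn (0.999) and Ltb (0.998), Gdnf to Lamtor1 (0.998) and Tedc1 (0.995), and Gfra1 to Ackr2 (0.991) and Arhgap27 (0.99). Between 19 genes, for Bdnf, and 223 genes, for Ngfr, passed r = 0.95, so that with 6 libraries such closeness was common.

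The rest of the pathway was read from 8 lists of 74 genes, covering other ligands and receptors of the same families, the enzymes that process them and the adaptors that carry their signal. Plg, Pspn, Gfra4 and Gfral had no count in any library, 55 genes were tested, and edgeR called 0 of the 55. DESeq2 called 6 of 53 (Ptprz1 and Ptpn11 higher, Clcf1, Nrg1, Ptn and Sh2b2 lower) and limma-voom 5 of 55 (Sort1 higher, Nrg1, Ptn, Sh2b2 and Sorl1 lower), against 12.2% and 9.12% of all genes. The groups did not overlap for 13 of the 55, against 30.4% of all genes tested, and the median log2 fold change was -0.15.

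Of the other neurotrophins 1 was tested. This was Ntf5, which encodes neurotrophin-4, a further TrkB ligand, and it had 23.4, 6.18 and 16.5 CPM after enrichment and 15.5, 14.5 and 4.39 CPM in bulk skin (log2 fold change 0.42, SE 0.97, edgeR adjusted p = 0.87). The groups overlapped for Ntf5. In the list of 7 other neurotrophin receptors, 5 were tested, with a median of -0.15. Sort1, which encodes sortilin, a receptor of neurotrophin precursors that pairs with the Ngfr product, led this list after enrichment at 15.4 ± 4.55 RPKM (SD, n = 3). Its 3 enriched libraries, at 100, 93.5 and 156 CPM, were all above those of bulk skin, at 30.4, 19.9 and 65.3 CPM (log2 fold change 1.6, SE 0.54, edgeR adjusted p = 0.145, range over the alternatives 0.0433 to 0.381). Sorl1, a sorting receptor related to sortilin, was separated the other way, at 26.0, 40.9 and 9.93 CPM after enrichment and 86.0, 73.5 and 84.4 CPM in bulk skin (log2 fold change -1.68, SE 0.59, edgeR adjusted p = 0.161, range over the alternatives 0.0413 to 0.353). Kidins220, a scaffold of Trk receptors, led in bulk skin at 10.5 ± 1.72 RPKM and was at 9.42 ± 3.06 RPKM after enrichment.

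Of the 7 processing enzymes 6 were tested, with a median of -0.66. Cpe, carboxypeptidase E, which sorts and trims prohormones and the Bdnf precursor in secretory granules, led by mean RPKM in both groups, at 109 and 40.7 RPKM. By mean CPM it did not lead in bulk skin. Cpe had 396, 341 and 117 CPM in NCAM-enriched libraries 1, 2 and 3 and 108, 121 and 89.7 CPM in bulk skin. Libraries 1 and 2 were above all of bulk skin and library 3 was within its range (log2 fold change 1.42, SE 0.48, edgeR adjusted p = 0.148, range over the alternatives 0.0321 to 0.357). Without library 3, which had the lowest enriched value, Cpe was called higher, where 12.2% of all genes were called. Cpe, the Merkel cell marker sum and Ntrk2 all had their lowest enriched value in library 3. The share of all genes lowest in that library was not counted, and a link between these values was not tested.

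Among the 4 other GDNF family ligands, of which 2 were tested, Nrtn, encoding neurturin, was by far the most abundant. Nrtn had 317, 0 and 1785 counts in NCAM-enriched libraries 1, 2 and 3, or 168, 0 and 507 CPM, and 196, 240 and 176 counts in bulk skin, or 60.9, 51.9 and 48.3 CPM. Libraries 1 and 3 were above every bulk skin library and library 2 had none (log2 fold change 2.07, SE 1.32, 95% interval -0.92 to 5.06, edgeR adjusted p = 0.454, range over the alternatives 0.00398 to 0.866). Without library 2 Nrtn was called higher, where 1036 of 14384 genes were called. That call rests on removing the enriched library that had no Nrtn count. Nrtn was also called higher when all genes with at least 1 count were fitted, where 1510 of 27884 genes were called. Per length Nrtn, at 220 ± 252 RPKM after enrichment and 52.5 ± 6.34 RPKM in bulk skin, was above Gdnf in 5 of 6 libraries.

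Gfra2, the main co-receptor of neurturin, had 137, 0 and 0 counts in the NCAM-enriched libraries and 83, 102 and 120 in bulk skin, so that its counts after enrichment came from library 1 alone. Gfra3, the co-receptor of artemin, had 0, 117 and 2 counts after enrichment and 14, 0 and 17 in bulk skin, nearly all the enriched counts being in library 2. Gfra1, described above, was in library 3. Each of the 3 co-receptor genes was thus held almost wholly by a different NCAM-enriched library. The share of all genes held almost wholly by 1 enriched library was not counted. The log2 fold changes were -0.15 (SE 1.72, edgeR adjusted p = 0.977) for Gfra2 and 3.32 (SE 2.17, edgeR adjusted p = 0.468) for Gfra3, and the list's median over these 2 of 4 genes was 1.58.

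**Figure D4:**
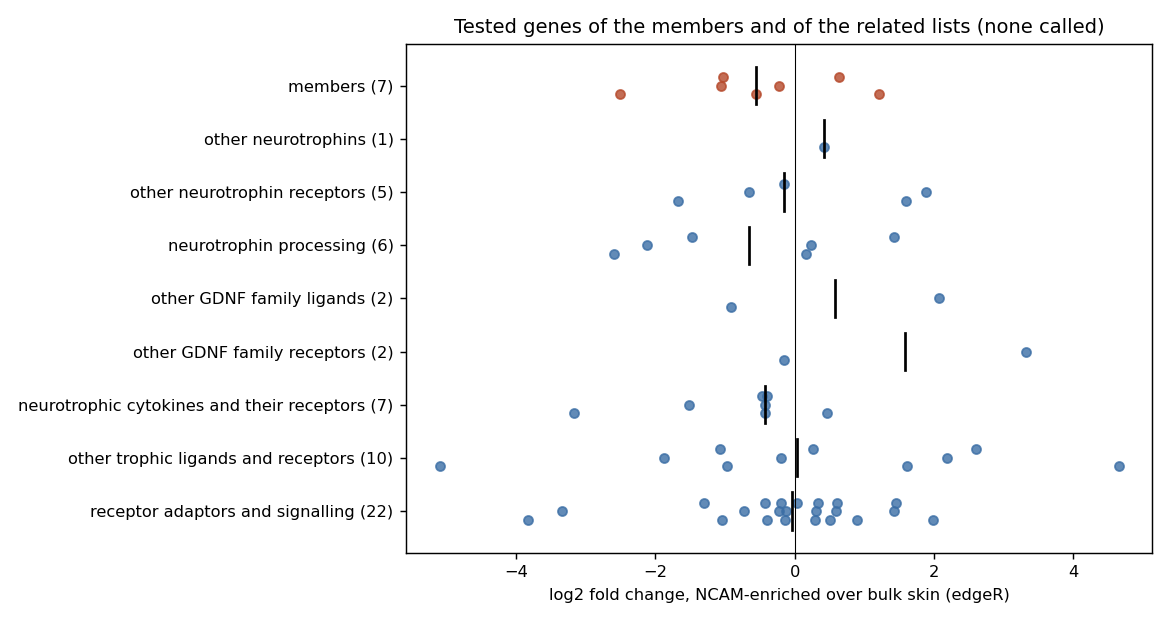
Log2 fold change, NCAM-enriched over bulk skin, of each tested gene (edgeR), for the members in red and the related lists in blue, with the number tested in brackets and a vertical bar at each median. The medians run from -0.66 for the processing enzymes to 1.58 for the GDNF family receptors, and no gene shown was called.

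In the list of 10 neurotrophic cytokines and their receptors 7 were tested, with a median of -0.42, and Ctf1, encoding cardiotrophin, led in both groups at 9.93 ± 9.27 RPKM (SD, n = 3) and 13.1 ± 0.708 RPKM. Of 13 other trophic ligands and receptors 10 were tested, with a median of 0.04. Il34, a keratinocyte cytokine that sustains Langerhans cells, led after enrichment by mean RPKM, at 52.3 RPKM, though not by mean CPM. It was at 118, 4.64 and 184 CPM after enrichment against 18.6, 58.6 and 23.0 CPM. Ptn, which encodes the heparin-binding factor pleiotrophin, led in bulk skin at 509, 305 and 358 CPM and was at 50.5, 92.7 and 173 CPM in the NCAM-enriched libraries. All enriched libraries were below all of bulk skin for Ptn (log2 fold change -1.88, SE 0.5, edgeR adjusted p = 0.0783, range over the alternatives 0.00329 to 0.285), and DESeq2 and limma-voom called it lower.

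Of the 27 adaptor and signalling genes 22 were tested, with a median of -0.04. Bex3, whose product binds the intracellular part of the Ngfr receptor, led in both groups by mean RPKM, at 105 and 116 RPKM, though in neither by mean CPM. It was at 131, 60.3 and 117 CPM after enrichment and 160, 95.3 and 84.7 CPM in bulk skin, and its groups overlapped (log2 fold change -0.14, SE 0.45, edgeR adjusted p = 0.912). Bex3 was thus present in the NCAM-enriched libraries in which Ngfr had no count.

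The remaining marker lists bear on cells known to carry these receptors. Sensory neuron markers summed to 281, 297 and 209 CPM in NCAM-enriched libraries 1, 2 and 3 and to 80.7 to 109 CPM in bulk skin, with 1 of 5 tested called higher and Calca at 0 in the enriched group and Scn10a and Nefm among those at 0 in bulk skin. Melanocyte markers summed to 75.5, 143 and 18.7 CPM against 29.8 to 117 CPM, with 0 of 2 called and Mlana at 0 in both groups and Tyrp1 in bulk skin. Muscle markers ran from 19.0 to 1178 CPM after enrichment and from 973 to 1365 CPM in bulk skin, with 1 of 4 called higher, Ckm at 0 after enrichment and Acta1 and Myh4 at 0 in bulk skin, and vascular markers from 10.8 to 14.5 CPM against 42.5 to 79.8 CPM, with 0 of 3 called and Cdh5, Rgs5 and Tek at 0 after enrichment. The part of these cells in the receptor counts was not tested.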

How the data were processed

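The authors deposited raw counts of reads per gene for 54532 genes, made by trimming, alignment to GRCm38 with STAR and counting with featureCounts, and not normalised. Annotation release and strandedness: not given in the sources used here. Positions and lengths came from GENCODE M21 (54495 IDs matched), promoter windows from RefSeq and groups from the labels. All genes were fitted with edgeR 4.0.16 in R 4.3.3 (TMM, filterByExpr on the groups, quasi-likelihood F-test without robust fitting) and p-values were adjusted by Benjamini-Hochberg over 13157 genes. Their common biological variation (BCV) was 0.744. SE is the size of the log2 fold change over the root of F. CPM used TMM-adjusted sizes of the genes tested. Fits were tested on simulated data. Alternatives were DESeq2 1.42.0, limma-voom (limma 3.58.1), other scaling factors and count filters, robust fitting, a replicate block and leaving out each library. DESeq2 on every gene with a count was added after seeing the data.

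The members and lists were chosen with earlier results of these data known. The rule named all 8 members, genes of the related lists called by edgeR or with the highest mean RPKM of their list in a group, and the 2 genes most correlated with each member. Related genes called by DESeq2 or limma-voom alone, Sorl1 among them, were added after their values were seen. Some listed genes are not reported here. Of the listed symbols, 2 were not found under the names used.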

Additional observations from a re-analysis of the deposited data

How the results depend on the processing

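Over the 16 alternatives, 106 values of a member's log2 fold change kept their direction and side of the threshold, 5 turned and 1, that of Ngfr without NCAM-enriched library 3 (fitted at -8.07), came past it. Bdnf turned to -1.09 with limma-voom, to -1.22 with the replicate block and ran from -2.88 to 1.15 over the libraries left out. Leaving out 1 library at a time gave -0.81 to 0.10 for Ntf3 and -7.08 to 0.02 for Gfra1. The count of members called lower was 0 to 1 over the libraries left out, the 1 being Ngfr without NCAM-enriched library 3. The difference in the number of members detected per library, -2.67 on average, ran from -3.33 to -2.17 over all its alternatives.

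Related genes called numbered 0 with edgeR, 6 with DESeq2, 5 with limma-voom, 5 with all genes of at least 1 count, 8 with DESeq2 on those genes, and 0 to 5 over the libraries left out. All genes called went from 341 to 1589, 1200, 1510 and 2353 in the same order, to 142 with the replicate block, and to 13 to 1832 over the libraries left out: 1036 and 1832 without NCAM-enriched libraries 2 and 3, and 13, 21 and 17 without bulk skin libraries 1, 2 and 3. The cause of these changes was not tested. With a library left out, 1 group has 2 libraries. Over the other scaling factors the median over all genes ran, on the log2 scale, from -0.17 to -0.06, against -0.07, with no change in the members' directions.

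Replicate numbers were not treated as pairs, since deviations of same-numbered libraries correlated at only 0.0226, 0.00025 and -0.00436 and no label says what a number stands for. The block changed no call of a member. Depth limits what a count of 0 says: 1 count was 0.284 to 0.773 CPM in the NCAM-enriched libraries, and a count of 0 allows a level of up to 0.851 to 2.32 CPM.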
